A study of Spirodela polyrhiza and Pistia stratiotes and Colocasia esculenta with 79 samples.

Results

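The stem of Pistia stratiotes, the water lettuce, was compared with its petiole by RNA sequencing of dissected pieces. The comparison rests on the 4 Stem and 4 Petiole libraries, chosen by their region labels, and these are 8 of the 79 libraries of a series on duckweeds and larger relatives in the arum family. The other Pistia regions, labelled Apical, Basal and Stolon (n = 4 libraries each), entered the statistical model and served as points of reference. All 5 regions came from plants grown at 22 °C under fluorescent light and extracted with the same kind of column kit, per the labels. No strain, treatment, age or genotype is given in the labels. They call the libraries of a region biological replicates without saying which plants or cultures each came from, so p-values measure the spread between these libraries only.

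In a rosette plant such as Pistia the stem is a short axis that bears the leaves and roots and holds the growing points. The petiole is the part of the leaf that joins the blade to that axis and carries its veins, and the stolon is the horizontal shoot that bears a daughter rosette. Whether the dissected Stem pieces included the shoot apex, buds or root bases is not given in the labels. Transcripts carry identifiers such as Pis15816.t1, which the files do not pair with gene names. No role is therefore given to any transcript, and the region labels were not checked against known marker genes. In a bulk sample, fewer cells of a type and less RNA per cell cannot be told apart.

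Expression was given in TPM, which is the abundance of a transcript per length relative to all others in its library. TPM keeps nothing of the number of reads behind a value, so how precise each value is cannot be known. Differences are Stem minus Petiole on the log2(TPM + 1) scale, which understates the change of transcripts at low TPM. Of the 19647 transcripts in the table, 18727 reached at least 1 TPM in at least 4 of the 20 Pistia libraries and were tested with limma. Calls were made at an adjusted p under 0.05, by the method of Benjamini and Hochberg over all of them. Of the 20 libraries, Apical replicate 4 stood apart from its region, with 11.9% of its TPM in the 10 most abundant transcripts against 16.2% to 16.9% in the other Apical libraries. Without it 9840 transcripts were called between Stem and Petiole, against 8295 with it.

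Stem and Petiole differed in 8295 transcripts, 44.3% of those tested, and most of the calls were higher in Stem. Of these, 5725 (30.6% of those tested) were higher and 2570 (13.7%) lower. The excess of higher calls depended in part on the scale. As deposited, 69.0% of the calls were higher in Stem, and after the libraries were rescaled by median-of-ratios factors 57.1% were, with 4660 higher and 3495 lower. The rescaling moved the median difference over all transcripts from 0.21 to 0.04, with factors of 1.16 to 1.25 in Stem and 1.06 to 1.08 in Petiole. The median size of the called differences was 1.13 on the log2 scale for transcripts higher in Stem and 1.08 for those lower. An absolute log2 difference of at least 1 was reached by 3234 of the 5725 higher and 1416 of the 2570 lower. As deposited, an absolute log2 difference of at least 4 was reached by 128 of the 5725 higher and 22 of the 2570 lower. Differences of this size were not counted after rescaling.

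A test against a minimum difference of 2-fold (limma's treat, adjusted p under 0.05) set apart 1988 transcripts, 10.6% of those tested. Of these, 1565 (8.36% of those tested) were higher in Stem and 423 (2.26%) lower. After rescaling 1280 were higher and 491 lower. The 4 Stem and 4 Petiole libraries did not overlap in 9297 transcripts, 49.6% of those tested, with Stem higher in 6415 (34.3%) and lower in 2882 (15.4%). Among the called transcripts this held for 5358 of the 5725 higher and 2254 of the 2570 lower. When TPM was summed over the transcripts of a gene, 7998 of 15794 genes (50.6%) were called, 5558 (35.2%) higher and 2440 (15.4%) lower in Stem.

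**Figure D1:**
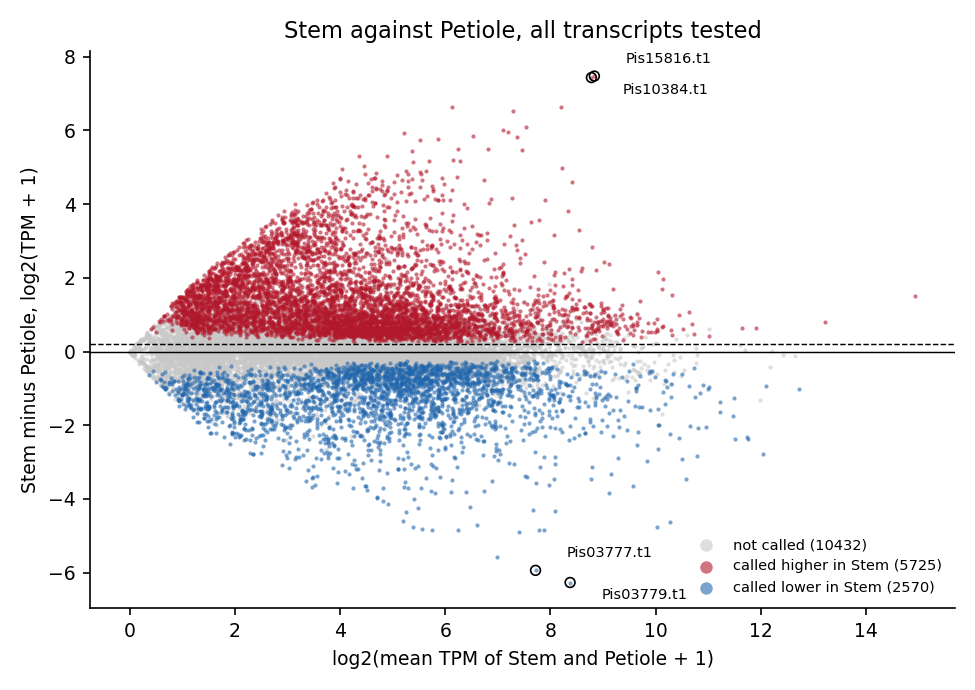
Difference between Stem and Petiole on the log2(TPM + 1) scale (vertical axis) against mean abundance (horizontal axis), with 1 point for each of the 18727 transcripts tested. The 5725 transcripts called higher in Stem reach 7.47 and the 2570 called lower reach -6.27, the dashed line is the median difference of 0.21, and circles mark the 4 named transcripts.

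Pis15816.t1 and Pis10384.t1 showed the largest increases in Stem among transcripts with a mean of at least 10 TPM and no overlap between the regions. Pis15816.t1 stood at 678, 844, 1118 and 982 TPM in Stem replicates 1 to 4, and at 18.2, 1.83, 2.15 and 2.69 TPM in Petiole replicates 1 to 4. Every Stem library was thus far above every Petiole library, and Petiole replicate 1 was well above the other Petiole libraries. The difference was 7.47 on the log2 scale (SE 0.51, limma adjusted p = 1.4e-09). In Stolon the same transcript stood at 4.85 to 30.6 TPM, and in the 8 Apical and Basal libraries it did not exceed 0.205 TPM.

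Pis10384.t1 stood at 766, 1009, 899 and 807 TPM in Stem and at 18.2, 6.84, 0 and 3.19 TPM in Petiole, in the order of the replicates. The Stem libraries lay close together, and the Petiole libraries ranged from a listed 0 to a level again highest in replicate 1. The difference was 7.43 (SE 0.56, limma adjusted p = 4.8e-09). Unlike Pis15816.t1 it was near 0 in Stolon, where 3 libraries were listed at 0 and replicate 2 stood at 0.761 TPM. It was listed at 0 in all Apical libraries and in 3 of the 4 Basal libraries. Without Petiole replicate 1 the differences were 8.12 for Pis15816.t1 and 8.08 for Pis10384.t1.

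Pis03779.t1 and Pis03777.t1 showed the largest decreases in Stem under the same rule, and their identifiers are 2 numbers apart. Pis03779.t1 stood at 10.7, 18.1, 4.43 and 2.89 TPM in Stem replicates 1 to 4, and at 669, 884, 559 and 499 TPM in Petiole replicates 1 to 4. The difference was -6.27 (SE 0.52, limma adjusted p = 1.8e-08). Pis03777.t1 stood at 8.64, 12.7, 3.41 and 2.22 TPM in Stem and at 483, 489, 398 and 278 TPM in Petiole. Its difference was -5.94 (SE 0.40, limma adjusted p = 1.4e-09). For both transcripts no Stem library reached any Petiole library, Stem replicate 2 was the highest of the Stem libraries and Stem replicate 4 the lowest. Both were also abundant in Stolon, at 373 ± 121 TPM for Pis03779.t1 and 197 ± 60.8 TPM for Pis03777.t1 (SD, n = 4). Neither exceeded 5.23 TPM in any Apical or Basal library.

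**Figure D2:**
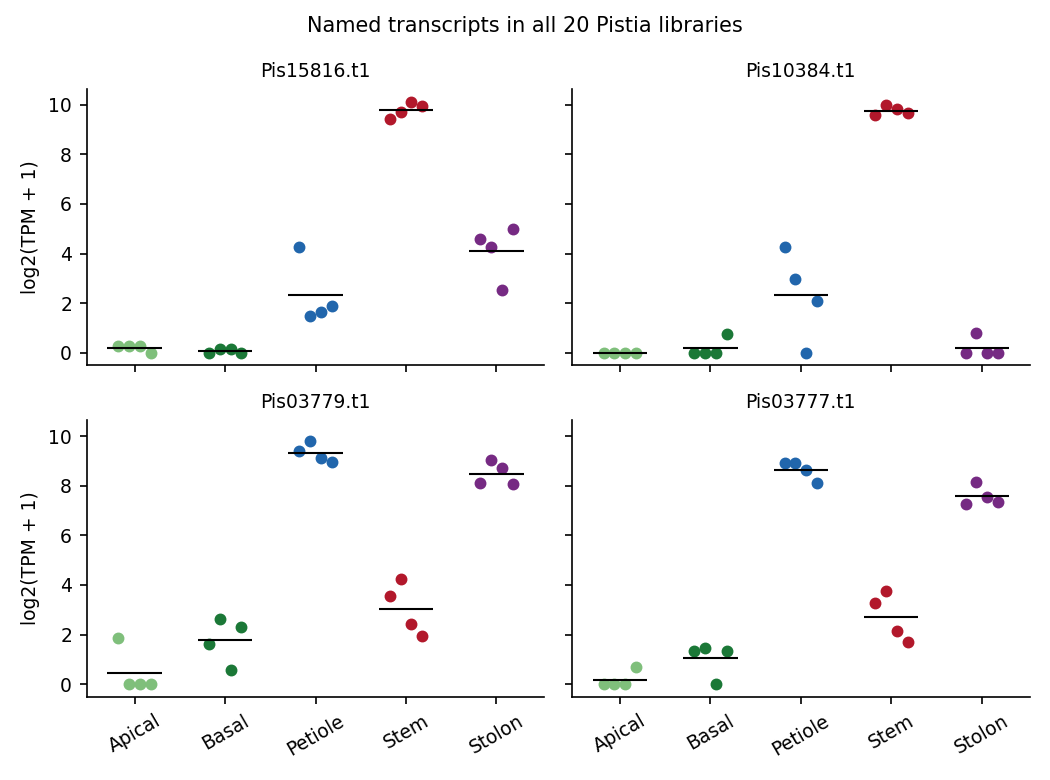
Level of the 4 named transcripts on the log2(TPM + 1) scale (vertical axis) in each of the 20 Pistia libraries, grouped by region (horizontal axis), where points are libraries in replicate order and bars are region means. Pis15816.t1 and Pis10384.t1 are highest in Stem among the 5 regions, and Pis03779.t1 and Pis03777.t1 are high in Petiole and Stolon.

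The libraries of a region did not carry the transcripts of the other region to the same degree. Of the 1565 transcripts beyond 2-fold higher in Stem, 1531 were above 0 in at least 1 Petiole library. Petiole replicate 1 was the highest Petiole library for 36.3% of them and replicate 2 for 38.9%, against 8.36% for replicate 3 and 16.5% for replicate 4. Over all transcripts tested these shares lay between 20.7% and 27.8%. The 1565 transcripts together held 1.13% of the TPM of Petiole replicate 1, 1.03% of replicate 2, 0.767% of replicate 3 and 0.991% of replicate 4, against 6.43% to 6.97% in Stem. Of the 423 transcripts beyond 2-fold lower in Stem, 422 were above 0 in at least 1 Stem library. Stem replicate 1 was the highest for 41.2% of these and replicate 4 for 7.35%, against 21.3% and 29.6% over all transcripts tested. Stem replicate 2 was the highest for 21.8% and replicate 3 for 29.6%, against 17.6% and 31.5%. The libraries with the lowest of these shares also gave the lowest correlation between whole libraries. The same transcripts, chosen for their difference between Stem and Petiole, enter that correlation, so it is no separate observation. Across the tested transcripts, which are not independent replicates, the highest Pearson r between a Stem and a Petiole library was 0.865, for replicate 1 of each, and the lowest was 0.794, for Stem replicate 4 and Petiole replicate 3. The part of these library differences in the calls was not tested beyond leaving out each library in turn.

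The most abundant transcript of the Stem libraries was Pis01846.t1, singled out after its values were seen. It stood at 38071, 52320, 46085 and 49384 TPM in Stem replicates 1 to 4, and at 15207, 13866, 16645 and 20186 TPM in Petiole replicates 1 to 4. All Stem libraries were above all Petiole libraries, with a difference of 1.50 (SE 0.31, limma adjusted p = 0.00058) that did not pass the test against 2-fold (adjusted p = 0.39). The other regions gave lower means, at 3793 ± 1434 TPM in Apical and 7030 ± 960 in Basal, and stood at 14398 ± 2878 in Stolon (SD, n = 4 each).

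Stem expression was spread over more transcripts than that of Petiole. The 4 Stem libraries had 17297, 17376, 17482 and 17300 transcripts at 1 TPM or more, and the 4 Petiole libraries 16547, 16547, 16161 and 16281. The regions did not overlap and differed by 979.75 on average, and an exact permutation test (two-sided) gave p = 0.0286, its lowest possible value for groups of 4. Adjusted over the 3 measures compared per library, the exact permutation p was 0.0429. After rescaling the difference was 863.75, with the same exact permutation p of 0.0286. The number of transcripts that together held 50% of the TPM was 821 ± 58.0 in Stem and 638 ± 25.8 in Petiole (SD, n = 4 each), with the same exact permutation p and adjusted p. The means of the other Pistia regions were 675 ± 23.7 in Stolon, 357 ± 102 in Apical and 329.5 ± 27.2 in Basal, which were not tested against Stem. The share of the 10 most abundant transcripts was 9.56% ± 0.807 in Stem and 7.79% ± 0.679 in Petiole, and here the exact permutation p was 0.0571. Stem libraries ranged from 8.60% to 10.5% and Petiole libraries from 7.03% to 8.63%, so they overlapped slightly, and Pis01846.t1 alone made up 3.81% to 5.24% of the Stem libraries.

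The direction of the calls differed between classes of abundance. The classes used mean TPM over all 20 libraries, and 12 of these came from regions that correlated better with Petiole than with Stem. A transcript high only in Stem thus tended to fall in a lower class, and one low only in Stem in a higher class. How far the choice of classes set the trend was not tested. Among the 5165 tested transcripts with a mean of 2 to 10 TPM over the 20 libraries, 37.0% were called higher in Stem and 8.73% lower. Among the 2830 at 50 to 200 TPM the shares were 21.3% higher and 25.4% lower, and among the 95 at 1000 TPM or more 10.5% higher and 52.6% lower. The median difference moved with these shares, from 0.41 at 2 to 10 TPM to -0.05 at 50 to 200 TPM and -0.70 at 1000 TPM or more. Rescaling lowered the medians and the higher shares of these classes, raised their lower shares and kept their order. It gave 31.7% higher and 10.3% lower at 2 to 10 TPM, and 5.26% higher and 58.9% lower at 1000 TPM or more. After rescaling the 10 to 50 TPM class was near balance, at 21.9% higher and 20.7% lower, where it had been 28.7% and 13.6% as deposited. Transcripts called lower in Stem together held 35.2% ± 0.525 of the TPM in Petiole and 14.0% in Stem, where libraries ranged from 12.5% to 15.1%. Transcripts called higher held 19.7% ± 0.504 in Petiole and 42.0% ± 1.86 in Stem (SD, n = 4 each). These sums describe the calls and are no separate test of them.

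**Figure D3:**
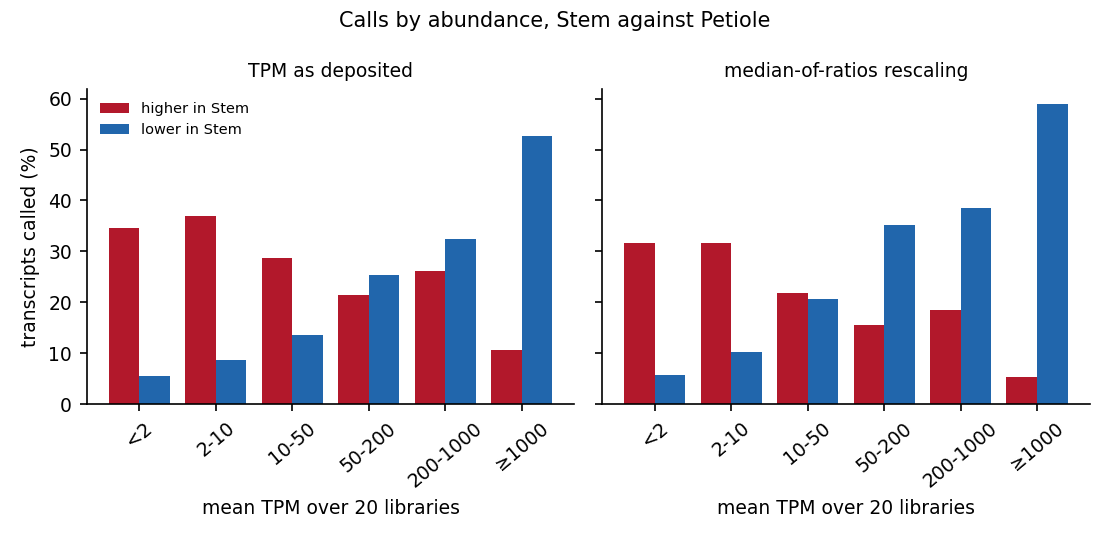
Share of tested transcripts called higher and lower in Stem than in Petiole (vertical axis, percent) by class of mean TPM over the 20 Pistia libraries (horizontal axis), as deposited on the left and after median-of-ratios rescaling on the right. Higher calls outnumber lower calls at 2 to 10 TPM, with 37.0% against 8.73% as deposited, and lower calls outnumber higher calls at 1000 TPM or more, with 52.6% against 10.5%.

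Few transcripts were present in either region and listed at 0 throughout the other. There were 40 with 0 in all 4 Petiole libraries and at least 1 TPM in all 4 Stem libraries, and their median level was 4.49 TPM and their highest 39.0 TPM in Stem. Of these 40, 11 were listed at 0 in the other 12 Pistia libraries too, and so passed the filter through the Stem libraries alone. The reverse pattern held for 8 transcripts, with a highest mean of 4.92 TPM in Petiole, and none of these was at 0 in all the Apical and Basal libraries. All 48 were among the calls, where 44.3% of all transcripts tested were called. The choice of these 48 used the Stem and Petiole values and already kept the regions from overlapping. That they were called was therefore largely set by the choice and is no separate test. A listed 0 may lie below what the read depth could show.

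Stem and Petiole libraries resembled their own region more than each other. Across the tested transcripts the mean Pearson r was 0.955 between Stem libraries, 0.951 between Petiole libraries and 0.835 between the regions. Petiole libraries were nearer to Stolon, with a mean r of 0.921, than to Stem, and Stem stood at 0.838 from Stolon. Petiole was also nearer than Stem to the Basal libraries (0.864 against 0.728) and to the Apical libraries (0.806 against 0.679). The transcripts share their libraries and are not independent replicates, so these values describe the libraries and carry no test.

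Transcripts beyond 2-fold higher in Stem were mostly low in all the other regions. Stem had the highest mean of the 5 regions for 1511 of the 1565, or 96.5%, against 44.3% of all transcripts tested, and Stolon had the highest for 43. Their median level on the log2(TPM + 1) scale was 4.18 in Stem, 1.54 in Stolon, 1.25 in Petiole, 0.33 in Basal and 0.22 in Apical. The Stolon mean lay nearer to Petiole than to Stem for 86.6% of them, against 69.7% of all transcripts tested. Because the choice of these transcripts used the Stem and Petiole values, the shares describe them and are not a separate test.

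Transcripts beyond 2-fold lower in Stem had their highest mean in Petiole for 194 of the 423, in Stolon for 120, in Apical for 63 and in Basal for 46. The share for Petiole was 45.9%, against 12.7% of all transcripts tested. Stem had the lowest mean for 261, or 61.7%, against 16.0% of all transcripts tested, and Apical had it for 132. Their median level was 5.63 in Petiole, 5.30 in Stolon, 4.66 in Basal, 4.20 in Apical and 3.17 in Stem. Together they held 9.75% ± 0.261 of the TPM in Petiole, 8.82% ± 0.210 in Stolon and 1.74% ± 0.203 in Stem (SD, n = 4 each). In Apical they held 11.9% ± 1.49 and in Basal 11.7% ± 0.601. The share of the set was thus smallest in Stem, and its means in Apical and Basal were above those in Petiole and Stolon.

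Lists were drawn from a fit of the 12 Apical, Basal and Stolon libraries, with no Stem or Petiole value in the fit. The filter before it counted all 20 libraries, so Stem and Petiole values helped decide which transcripts could enter. A transcript entered a list at an adjusted p under 0.05 in limma's fit of the 12 libraries and a log2 difference of at least 1, so smaller called differences are left out. Of the 1620 transcripts higher in Apical than in Stolon, 518 (32.0%) were lower in Stem than in Petiole and 215 (13.3%) higher, with a median difference of -0.29. Over all transcripts tested 13.7% were lower and 30.6% higher, with a median of 0.21. Their library medians on the log2 scale were 5.17 in Apical, 3.90 ± 0.098 in Petiole, 3.65 ± 0.077 in Stem and 3.37 in Stolon, so Stem lay between Petiole and Stolon. Of the 4414 transcripts higher in Stolon than in Apical, 1743 (39.5%) were higher in Stem than in Petiole and 742 (16.8%) lower, with a median of 0.34. After rescaling the counts were 1511 (34.2%) and 897 (20.3%), and the median was 0.17, where 24.9% of all transcripts tested were higher and 18.7% lower.

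The list of transcripts higher in Basal than in Apical held 69. Of these, 47 (68.1%) were lower in Stem than in Petiole, against 13.7% of all transcripts tested, 6 (8.70%) were higher, against 30.6%, and 16 were not called. The median difference was -1.56. After rescaling 53 (76.8%) were lower and 4 (5.80%) higher, against 18.7% and 24.9% of all transcripts tested. Lower calls were more frequent among abundant transcripts, at 25.4% for 50 to 200 TPM and 32.4% for 200 to 1000 TPM as deposited. The list was not compared with transcripts of like abundance. The library medians of the list were 1.05 in Apical, 3.27 in Basal, 5.66 ± 0.136 in Stem, 6.86 ± 0.201 in Petiole and 7.25 ± 0.150 in Stolon (SD, n = 4 each). No Stem library, at most 5.84, reached the lowest Petiole library, at 6.58. The reverse list, higher in Apical than in Basal, held 1 transcript, which was not called between Stem and Petiole.

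**Figure D4:**
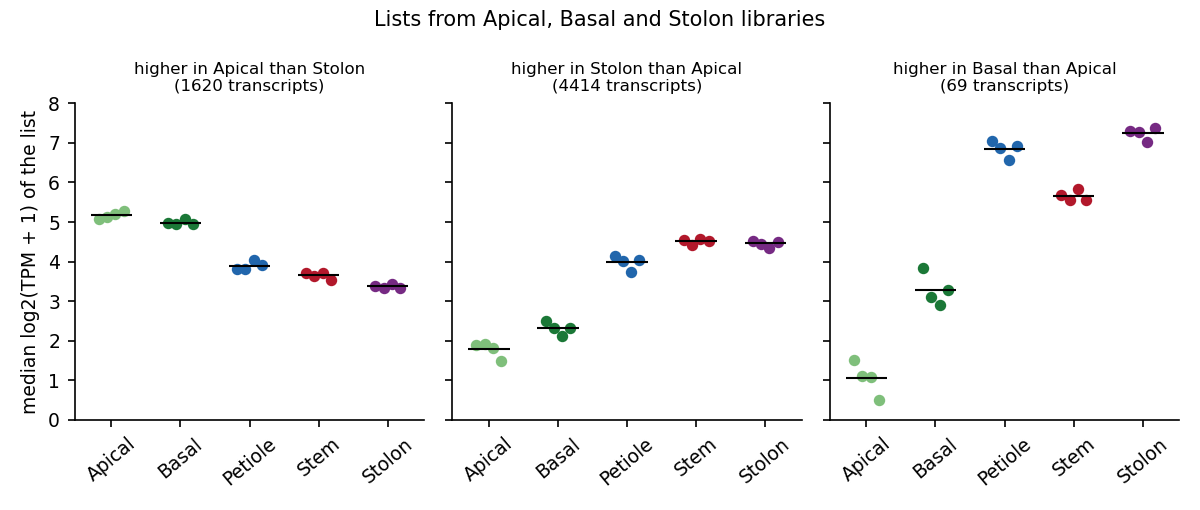
Median level of 3 lists of transcripts on the log2(TPM + 1) scale (vertical axis) in each of the 20 Pistia libraries (points), by region (horizontal axis). Each list came from a fit of Apical, Basal and Stolon libraries only, after a filter that counted all 20 libraries. For the 69 transcripts higher in Basal than in Apical, all Stem libraries (at most 5.84) lie below all Petiole libraries (at least 6.58).

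Calls were also described by the order of the identifier numbers, with no test. Whether the numbers follow positions in the genome is not given in the sources used here, and the comparison was chosen after the data were seen. Of 321 genes beyond 2-fold lower in Stem on summed TPM that had a tested gene at the next number, 39 (12.1%) were followed by another lower gene, where 2.61% of all genes were lower. Of 1200 higher genes, 181 (15.1%) were followed by another higher gene, where 9.83% of all genes were higher. From 10 to 100 steps the shares lay between 1.92% and 4.23% for lower genes and between 8.82% and 10.6% for higher genes. Runs of consecutive called numbers held 69 of the 412 lower genes (16.7%) and 337 of the 1553 higher genes (21.7%). The longest run in either direction held 4 genes. These 2 shares cannot be compared directly, because 2.61% of all genes were lower and 9.83% higher. The shares in runs that those frequencies alone would give were not computed. Neighbouring copies of similar sequence could share reads in the quantification, and this was not tested.

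**Figure D5:**
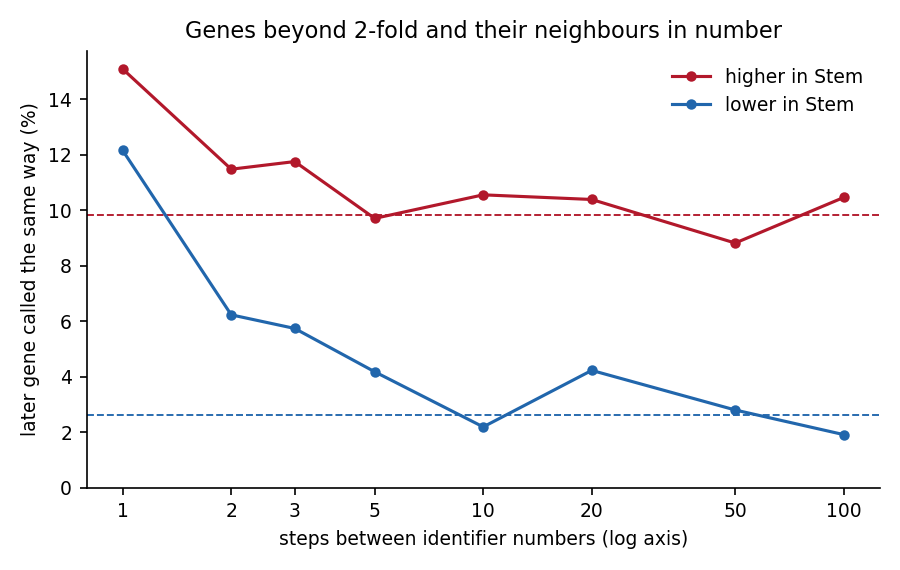
Share of genes followed by a gene called the same way (vertical axis, percent) against the steps between identifier numbers (horizontal log axis), for genes beyond 2-fold higher and lower in Stem, with dashed lines at the shares over all genes, 9.83% and 2.61%. The share for lower genes is 12.1% at 1 step and 1.92% to 4.23% from 10 to 100 steps, and that for higher genes is 15.1% and 8.82% to 10.6%.

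Transcripts of the same gene rarely moved in opposite directions. Of 2041 genes with at least 2 tested transcripts, 19 had a transcript called higher and another called lower, and 348 had 2 or more called in the same direction only. A transcript's share of its gene was compared as the log2 ratio of its TPM to that of the gene's other transcripts, and 116 of 4981 shares (2.33%) were called. The count depended on the settings. It was 7 of 4981 with a replicate block in the 8 libraries alone and 45 of 4981 with a pseudocount of 0.1. A change of filter also changed the number tested, with 58 of 2502 called under a stricter filter and 191 of 5797 with no filter. In the genes with at least 5 TPM in each of the 8 libraries, a restriction chosen after the data were seen, 39 of 4326 shares in 26 genes were called, with a median difference of 15.1 percentage points.

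By the naming rule, which took the 2 genes with the widest gap between a higher and a lower transcript, Pis10762 and Pis17336 are described. In Pis17336 the transcript Pis17336.t1 stood at 23.3, 25.2, 29.9 and 30.8 TPM in Stem replicates 1 to 4, and at 9.90, 6.49, 6.63 and 8.03 TPM in Petiole replicates 1 to 4. Pis17336.t2 stood at 5.30, 4.51, 7.04 and 5.29 TPM in Stem and at 11.7, 10.2, 21.1 and 10.3 TPM in Petiole. Neither transcript overlapped between the regions, and their directions were opposite. The differences were 1.70 for t1 (SE 0.19, limma adjusted p = 8.0e-07) and -1.09 for t2 (SE 0.29, limma adjusted p = 0.0045). Pis17336.t1 made up 81.6% ± 2.63 of the gene in Stem and 35.1% ± 9.16 in Petiole (SD, n = 4 each), with a limma adjusted p of 8.7e-05 for the share. Its mean share was 41.1% in Stolon, 5.36% in Basal and 3.96% in Apical, so Stolon was near Petiole here too.

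Pis10762 had the wider gap of the 2 genes on the log2 scale, and the smaller change of share in percentage points. Pis10762.t2 stood at 441, 487, 544 and 487 TPM in Stem and at 190, 176, 112 and 184 TPM in Petiole. Pis10762.t1 stood at 5.14, 4.26, 5.44 and 10.5 TPM in Stem and at 16.0, 11.01, 15.0 and 28.4 TPM in Petiole. The groups did not overlap for either transcript. The differences were 1.59 for t2 (SE 0.35, limma adjusted p = 0.0010) and -1.33 for t1 (SE 0.53, limma adjusted p = 0.0485). The t2 share was 98.7% ± 0.57 in Stem and 90.3% ± 3.48 in Petiole, with a limma adjusted p of 0.0428, and 0.0794 among the genes with at least 5 TPM. The call of t1 was lost in 14 of the 20 fits that left out 1 library, where its adjusted p reached 0.140.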

How the data were processed

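RNA was sequenced from 5 dissected regions of Pistia with 4 libraries each, as 150 bp paired reads from fragments of 370 to 420 bp, per the labels' protocols. The deposited values are TPM per transcript. The submitters' processing notes name Salmon 1.10.0 among the authors' tools. For the reference transcripts and the read depths, nothing is stated in the labels or file headers. Library totals were 998999 to 999582 TPM, and no transcript in the table had a maximum under 2.0009 TPM.

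Transcripts with at least 1 TPM in at least 4 of 20 libraries were tested on log2(TPM + 1) with limma 3.58.1 in R 4.3.3, with a mean-variance trend. The model held all 5 regions, so they share the estimate of spread. Adjustment was by Benjamini-Hochberg over all tested features. Gene values are TPM summed over identifiers sharing a prefix. Per-library measures were compared by exact permutation (scipy 1.17.1).

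The 2 transcripts named per direction had the largest differences among those called without overlap and with a mean of at least 10 TPM. The 2 genes named for isoforms had the widest gap between a transcript called higher and another called lower. The comparison, lists and rules were chosen with earlier results of these data known. Scripts were tested on simulated data. Alternatives covered the pseudocount, filter, rescaling, libraries in the fit, replicate block and each library left out.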

Additional observations from a re-analysis of the deposited data

Results flagged for a closer look

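The Stem and the Petiole libraries were examined for a library far from the others in the 9 named transcripts and the 3 measures per library, which made 24 groups of 4, and 2 were found. Chance gives about 1 in 20 groups. Pis15816.t1 stood at 18.2 TPM in Petiole replicate 1, where the gap to the next library was 0.948 of the whole range of Petiole. Pis17336.t2 stood at 21.1 TPM in Petiole replicate 3, where that ratio was 0.862. Without these libraries the differences between Stem and Petiole were 8.12 for Pis15816.t1 and -0.86 for Pis17336.t2, and both were still called (limma adjusted p at most 0.0208).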

How the results depend on the processing

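Counts of transcripts called in all, higher, lower and beyond 2-fold, and of genes called, stayed within 1.5 times under the 27 alternatives for each. The lowest count of calls was 7013 of 14990 tested with the stricter filter. The highest was 10011 of 18727 with a replicate block in the 8 libraries alone. Of the 8295 calls, 83.7% to 99.6% were called in the same direction under the 6 alternatives compared transcript by transcript. The lowest share was that of the stricter filter, where calls on transcripts it did not test counted as not shared. Of its 7013 calls, 6946 were also called in the same direction in the main fit. The next lowest share was 87.1%, after rescaling. The differences of the named transcripts kept their calls, except Pis10762.t1, which lost it with a pseudocount of 0.1 (adjusted p 0.215), with the replicate block in all 20 libraries (0.0634) and in 14 leave-outs, and kept it with the block in the 8 libraries alone (0.00078).

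The count of isoform shares called, 116, was the least stable. Of 4981 shares tested, it was 45 with a pseudocount of 0.1, 73 with the 8 libraries alone and 7 with those and the replicate block. Where the number tested differed, it was 191 of 5797 with no filter and 58 of 2502 with the stricter filter. In genes with at least 5 TPM it was 39 of 4326. It ranged from 81 to 147 when 1 library was left out. The cause was not tested.

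Leaving out 1 library, the difference in transcripts at 1 TPM or more ranged from 905 to 1034, and that in transcripts holding 50% of TPM from 166 to 210. The exact permutation p was then 0.0571, the smallest that 3 against 4 libraries allow. With the replicate block, permuting within pairs, the differences of 979.75 and 182.75 had an exact p of 0.125, the smallest that 4 pairs allow. The replicate numbers were not taken to pair the libraries: deviations of same-numbered Stem and Petiole libraries correlated at 0.0924 to 0.184, over 0.1 in 3 of 4 pairs, and each of the 8 libraries correlated best with its own number, a hint from the data and not from the design. With the block, 9176 transcripts were called in the fit of all 20 libraries. Read depth is unknown, so which low values are resolved cannot be said.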
